A study of Homo sapiens with 56 samples.

Results

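The dual-specificity MAPK phosphatases DUSP1 to DUSP10 were followed through estrogen receptor ligand treatment of 2 ovarian cancer cell lines. All probe sets that the array annotation assigns to one of the 10 gene symbols were taken, which gave 18 of the 22215 non-control probe sets and 10 of the 11963 genes named by a probe set with a single symbol. None of the 18 carries a second gene symbol. PEO4 and PEO1 are established lines labelled as high-grade serous ovarian cancer. Each contributed 28 Affymetrix arrays in 7 groups of 4, which are 4-hydroxytamoxifen (4OHT, 1 uM) with estradiol (E2, 1 nM), ICI182,780 (ICI, 1 uM) with E2, 4OHT alone, ICI alone, E2 alone, ethanol vehicle, and an untreated 0 h group. The titles of the PEO4 arrays say Tam where those of PEO1 say 4OHT, and Tam was read as 4OHT because the series' design text defines it so. All 7 groups had first been deprived of hormone for 3 days, in charcoal-stripped serum and IMEM without phenol red, and the 6 treated groups were collected after 3 h. Nothing in the labels says whether the 4 arrays of a group came from separate cultures, so the p-values measure the spread between these arrays, which may be technical.

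Dual-specificity phosphatases switch off mitogen-activated protein kinases by removing phosphate from both the threonine and the tyrosine of the activation loop. DUSP1, DUSP2, DUSP4 and DUSP5 are nuclear enzymes encoded by inducible early genes, DUSP6, DUSP7 and DUSP9 are cytoplasmic enzymes that prefer ERK, and DUSP8 and DUSP10 act mainly on JNK and p38. DUSP3, also called VHR, is a small atypical enzyme that lacks the kinase-binding domain of the others. Many of these genes are themselves transcribed in response to MAPK signalling, and so act in negative feedback. Of the ligands, E2 is the natural agonist of the estrogen receptor, 4OHT is a triphenylethylene that acts as agonist or antagonist depending on the gene and tissue, and ICI182,780 (fulvestrant) is a steroidal E2 derivative with a long side chain that blocks the receptor and promotes its degradation.

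The promoters of 3 members whose response to 4OHT or E2 separated the lines or the compounds are shown, as the 250 bases before the annotated start in the RefSeq table of GRCh38.p14, 5′ to 3′ on the strand of the gene. Capitals mark the matches to any of the motifs searched. The windows are chr5:172771196-172771445, minus strand, for DUSP1, chr2:96145441-96145690, minus strand, for DUSP2 and chr12:89352502-89352751, minus strand, for DUSP6.
DUSP1: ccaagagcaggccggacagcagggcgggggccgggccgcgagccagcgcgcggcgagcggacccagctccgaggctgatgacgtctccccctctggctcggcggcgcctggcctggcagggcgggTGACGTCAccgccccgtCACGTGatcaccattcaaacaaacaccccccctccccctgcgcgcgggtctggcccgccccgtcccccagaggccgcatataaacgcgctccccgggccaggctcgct
DUSP2: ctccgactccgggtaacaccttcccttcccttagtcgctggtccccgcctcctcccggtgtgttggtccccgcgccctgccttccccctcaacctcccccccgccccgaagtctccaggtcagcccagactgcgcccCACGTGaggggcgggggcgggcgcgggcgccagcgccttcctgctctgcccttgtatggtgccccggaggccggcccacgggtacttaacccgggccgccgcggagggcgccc
DUSP6: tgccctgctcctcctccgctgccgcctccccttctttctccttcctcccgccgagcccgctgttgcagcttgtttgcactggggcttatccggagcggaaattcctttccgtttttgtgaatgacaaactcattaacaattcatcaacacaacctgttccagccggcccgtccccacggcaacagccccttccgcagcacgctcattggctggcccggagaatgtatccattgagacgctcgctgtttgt

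The search covered 10 promoter windows of 8 of the 10 genes, on both strands, and left out DUSP4 and DUSP5. The cAMP response element TGACGTCA lay in 2 of the 10 windows, those of DUSP1 and DUSP8, against 1.65% of 35116 promoter windows of the same length. The E-box CACGTG lay in the windows of DUSP1 and DUSP2, against 6.34% of all windows. The AP-1 motif TGANTCA, the CArG box of serum response factor and the palindromic estrogen response element GGTCANNNTGACC matched 0 of the 10 windows, against 6.57%, 1.16% and 0.0399% of all windows. No motif searched overlaps another in the windows shown, and the DUSP6 window held no match to any of the 5.

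As a check of the treatments, GREB1, a directly estrogen-induced gene, was higher with E2 than with vehicle by 1.69 ± 0.13 log2 in PEO4 (SE, limma adjusted p = 2.27e-09) and by 1.97 ± 0.09 in PEO1 (adjusted p = 1.14e-13). The epithelial and Müllerian markers EPCAM, PAX8 and WT1 had medians of at least 10.96 log2 in both lines, ESR1 had a median of 11.67 in PEO4 and 11.25 in PEO1, and the leukocyte marker PTPRC had a median of 4.27 in PEO4 and 3.17 in PEO1. The T cell marker CD3E had medians of 7.40 in PEO4 and 6.99 in PEO1, and the stromal marker COL1A1, at 8.42 and 8.27, lay above the array medians. SOX17, which marks Müllerian epithelium, was low in both lines, with medians of 4.60 in PEO4 and 3.92 in PEO1. By the ACTB control probe sets, where a larger 3′ over 5′ difference marks shorter labelled RNA, PEO4 arrays ICI 1 (3.41 log2), 0 h 4 (2.28) and 4OHT with E2 4 (1.74) stood apart from the other PEO4 arrays, and the PEO1 arrays lay between -0.25 and 0.14. By the GAPDH control probe sets, ICI 1 (1.74) and 0 h 4 (0.86) also stood apart, but 4OHT with E2 4 (0.06) did not. The array medians lay between 7.84 and 7.91 in PEO4 and between 7.40 and 7.48 in PEO1, so levels are compared within a line and for the same probe set only.

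With 4OHT in PEO4, 6 of the 10 genes had a called probe set against vehicle, and 6 did with E2 in both groups. DUSP3, DUSP4, DUSP5 and DUSP6 were called in both comparisons. In PEO1, 4 genes had a called probe set in each. A probe set was called where limma's moderated test gave a Benjamini-Hochberg adjusted p below 0.05 over all 22215 probe sets. In PEO4, 10 of the 18 probe sets were higher and 0 lower with 4OHT than with vehicle, where 2.08% of all probe sets were called higher and 1.85% lower. With E2 present in both groups, 9 were higher and 0 lower with 4OHT plus E2 than with E2, where 2.72% of all were called higher and 1.53% lower. The median change of the 18 was 0.28 log2 without E2 and 0.30 with it, beside 0.00 over all probe sets in both comparisons, and these comparisons share no arrays. In bulk RNA, a change in few cells and a smaller change in many cells cannot be told apart.

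In PEO1, 5 probe sets were higher and 0 lower with 4OHT than with vehicle (1.4% of all called higher and 2.81% lower), and 4 were higher and 1 lower with 4OHT plus E2 than with E2 (3.16% of all called higher and 6.83% lower). The median of the 18 was 0.02 and -0.02 log2 in these comparisons, beside -0.03 and -0.01 over all probe sets. The members called in PEO1 were therefore a few single genes, DUSP4, DUSP5, DUSP1 and DUSP10 upward and 1 DUSP6 probe set downward, and the family as a whole lay at the median of the array. ICI alone called 0 of the 18 against vehicle in either line by limma, with 4 at an unadjusted p below 0.05 in PEO4 (0.0405% of all probe sets called higher and 0.036% lower) and 5 in PEO1 (0% higher and 0.0585% lower).

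**Figure D1:**
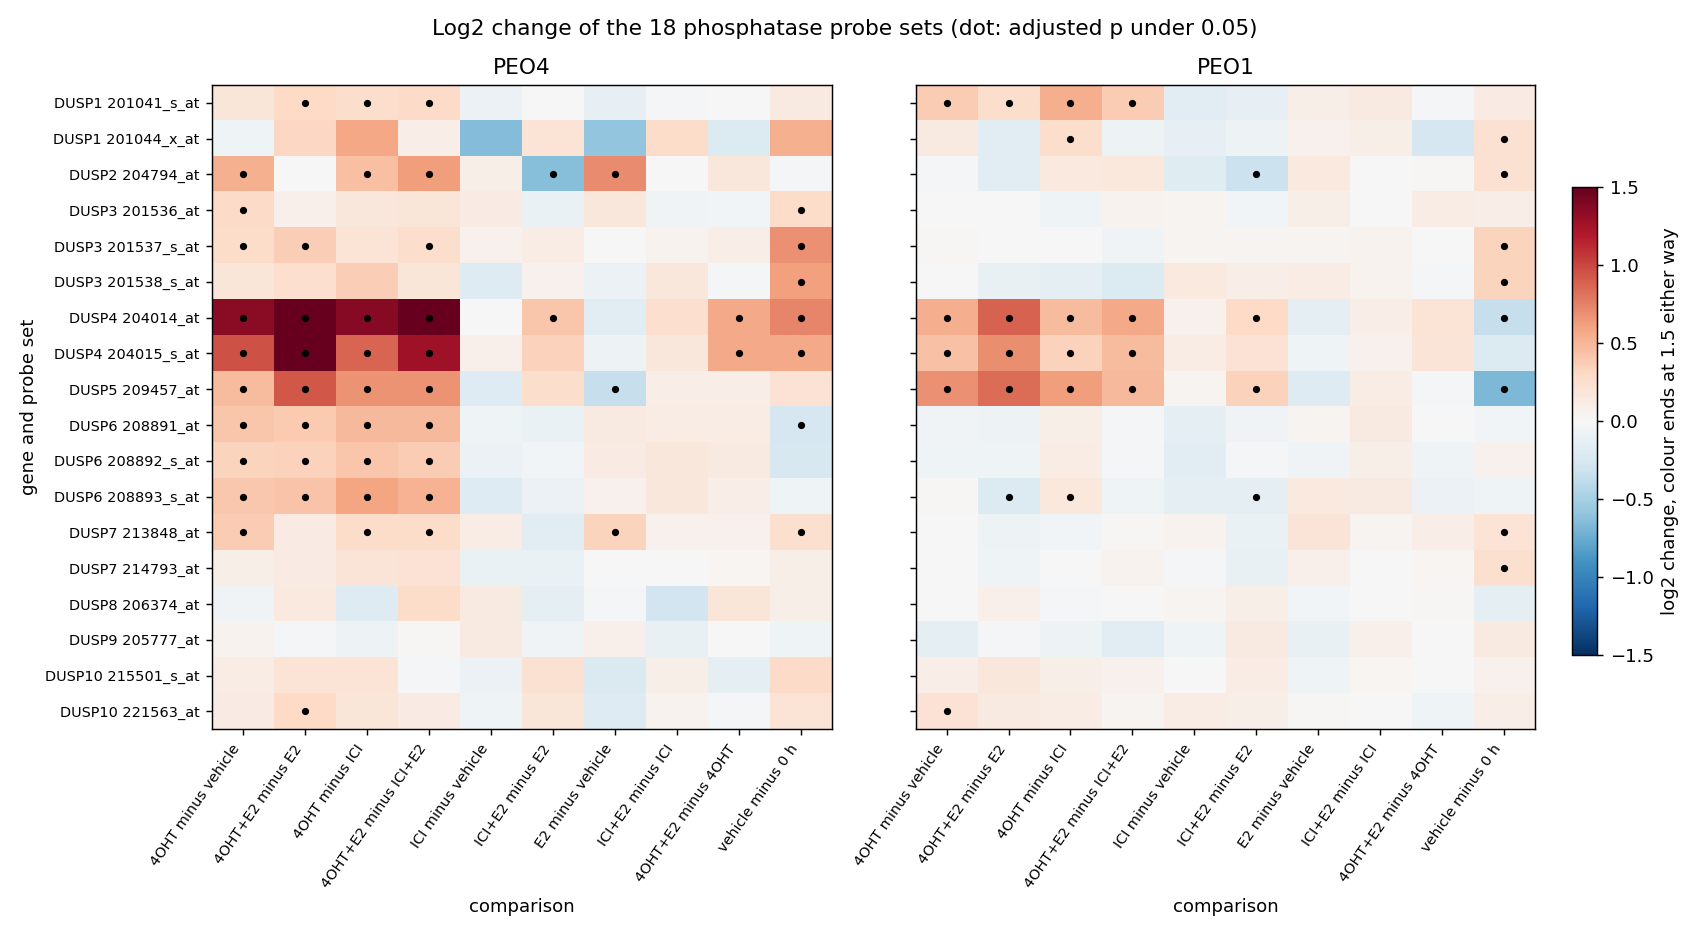
Heat map of the log2 change of the 18 member probe sets (rows, grouped by gene) in 10 comparisons (columns) in PEO4 and PEO1, with a dot where the adjusted p was below 0.05. The strongest cells are those of DUSP4 in the 4OHT comparisons of PEO4, where the change reached 2.10 log2, and the columns of ICI against vehicle hold no dot.

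DUSP4, a nuclear phosphatase of ERK, JNK and p38, had the widest span of group means among the members in PEO4. With probe set 204014_at, the 4 PEO4 arrays read 9.45, 9.83, 10.01 and 9.78 log2 with 4OHT plus E2, 8.25, 7.95, 7.95 and 8.19 with ICI plus E2, 9.37, 9.12, 9.09 and 9.19 with 4OHT, and 8.11, 7.69, 7.77 and 7.77 with ICI. The E2 arrays read 7.50, 7.70, 7.87 and 7.59, the vehicle arrays 7.73, 7.78, 7.93 and 7.91, and the 0 h arrays 6.93, 7.13, 7.10 and 7.28. All 8 arrays that received 4OHT lay above all 20 that did not, and the ICI and E2 arrays overlapped the vehicle arrays. The group means, in ascending order 0 h, E2, ICI, vehicle, ICI plus E2, 4OHT and 4OHT plus E2, spanned 2.65 log2 beside a pooled SD of 0.16. The arrays of the neighbours E2, ICI and vehicle overlapped, with E2 minus vehicle at -0.17 (adjusted p = 0.825) and ICI minus vehicle at 0.00 (adjusted p = 0.99).

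The difference between 4OHT and vehicle in PEO4 was 1.35 ± 0.11 log2, or 2.56-fold (SE, limma adjusted p = 1.43e-08), and that between 4OHT plus E2 and E2 was 2.10 ± 0.11, or 4.29-fold (adjusted p = 5.63e-13). The second DUSP4 probe set, 204015_s_at, gave 0.96 (adjusted p = 4.12e-06) and 1.61 (adjusted p = 1.35e-10), and the 2 probe sets correlated at 0.99 over the 28 PEO4 arrays. DUSP4 was also higher with 4OHT plus E2 than with 4OHT, by 0.57 ± 0.11 (adjusted p = 0.0445). In that comparison 2 members, both of them DUSP4 probe sets, were called higher and 0 lower, where 0.063% of all were called higher and 0.0045% lower. Without array 4OHT with E2 4 the difference stayed at 0.57 with an adjusted p of 0.127. Both calls were also lost without any 1 of arrays 4OHT 2, 3 or 4 and 4OHT with E2 2 or 3.

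In PEO1 the same DUSP4 probe set read 10.70, 10.60, 10.49 and 10.60 with 4OHT plus E2, 10.05, 9.90, 10.12 and 10.02 with ICI plus E2, 10.47, 10.49, 10.27 and 10.30 with 4OHT, and 9.92, 9.86, 9.88 and 10.02 with ICI. It read 9.67, 9.78, 9.79 and 9.65 with E2, 9.87, 9.81, 10.02 and 9.70 with vehicle, and 10.12, 10.17, 10.32 and 10.14 at 0 h. The 4OHT arrays again lay above the vehicle, E2 and ICI arrays, while the 0 h arrays reached as high as the lower 4OHT arrays, and the group means spanned 0.88 log2. The change was 0.54 ± 0.07 with 4OHT against vehicle (SE, limma adjusted p = 2.01e-05) and 0.88 ± 0.07 with 4OHT plus E2 against E2 (adjusted p = 8.01e-10). Probe set 204015_s_at was called in both comparisons as well, at 0.44 and 0.70.

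**Figure D2:**
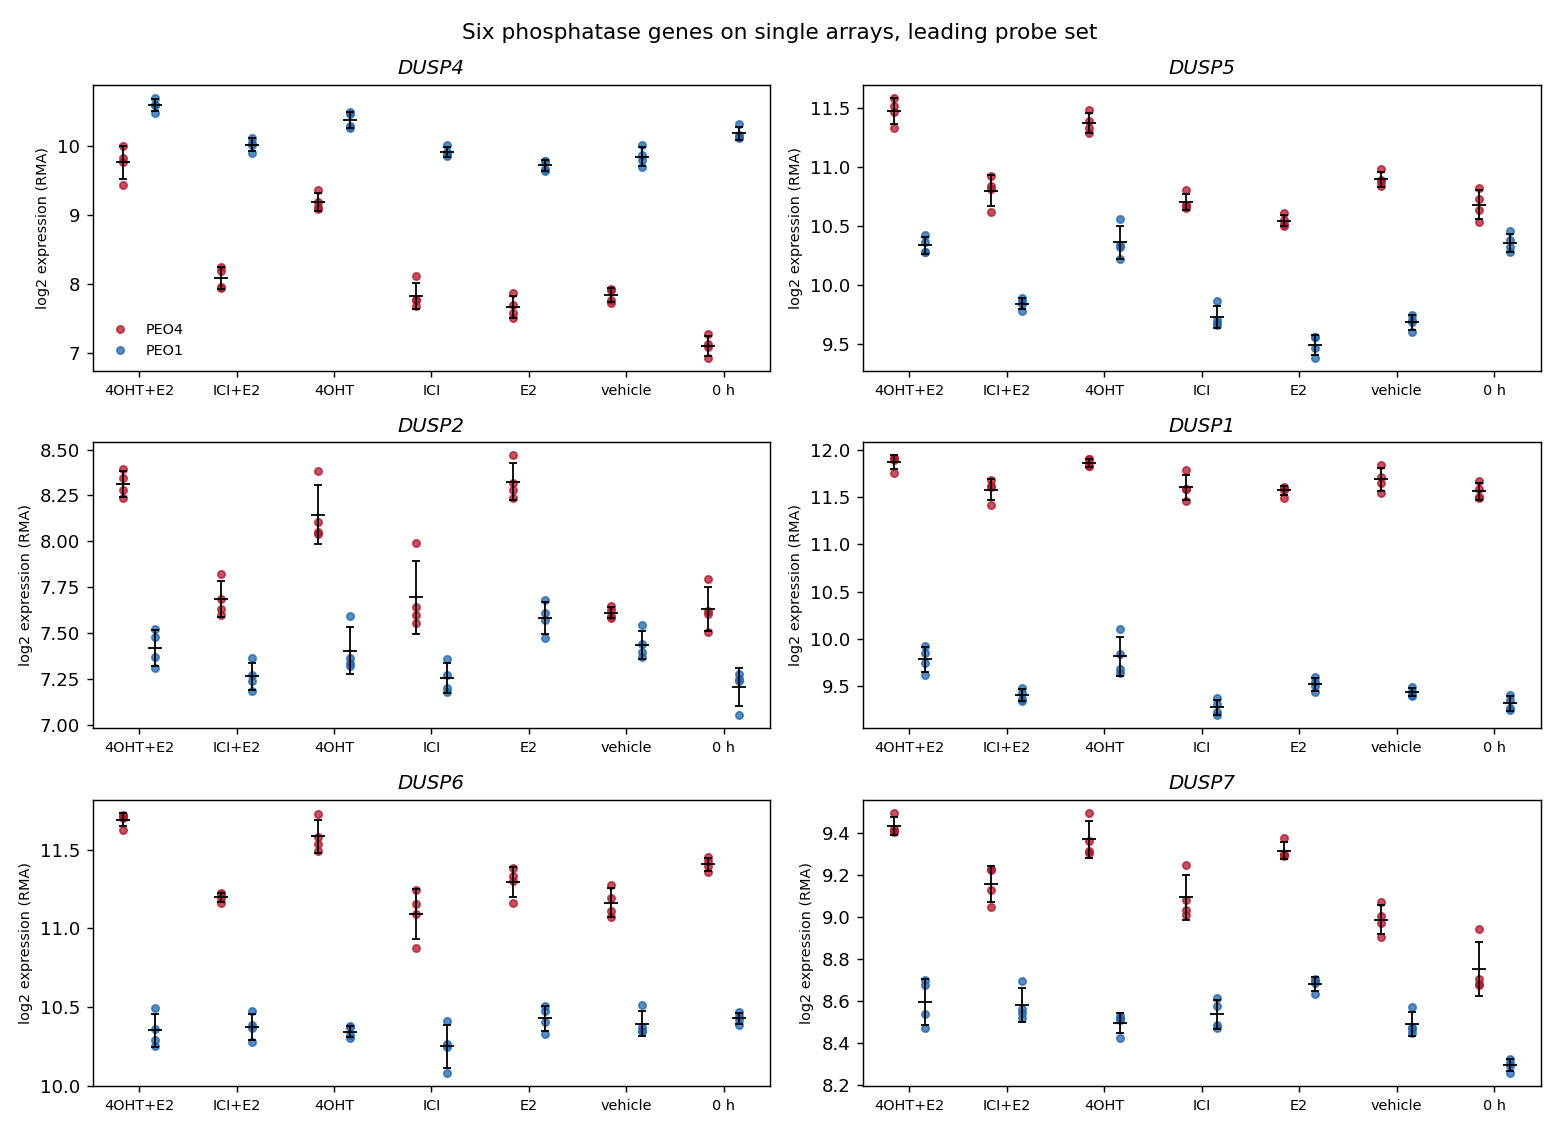
Log2 RMA level of each array (points) with the group mean ± SD (bars) for 1 probe set each of DUSP4, DUSP5, DUSP2, DUSP1, DUSP6 and DUSP7 in the 7 groups, PEO4 in red and PEO1 in blue. The DUSP4 arrays with 4OHT stand above the other groups of PEO4, DUSP5 is raised by 4OHT in both lines, and DUSP2 is high in the E2 and both 4OHT groups of PEO4, at group means of 8.15 to 8.32 log2 beside 7.61 with vehicle.

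DUSP5, a nuclear phosphatase specific for ERK, rose with 4OHT in both lines. In PEO4 it read 11.52, 11.46, 11.58 and 11.33 log2 with 4OHT plus E2, 11.48, 11.29, 11.33 and 11.38 with 4OHT, 10.55, 10.61, 10.50 and 10.52 with E2, and 10.87, 10.84, 10.98 and 10.88 with vehicle. The ICI arrays read 10.68, 10.68, 10.80 and 10.65, and those with ICI plus E2 read 10.84, 10.62, 10.92 and 10.81. All 4OHT arrays lay above all others, and all E2 arrays lay below all vehicle arrays. The change was 0.47 ± 0.07 with 4OHT against vehicle (SE, limma adjusted p = 6.92e-05), 0.93 ± 0.07 with 4OHT plus E2 against E2 (adjusted p = 2.35e-10) and -0.35 ± 0.07 with E2 against vehicle (adjusted p = 0.00253).

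In PEO1, DUSP5 read 10.37, 10.28, 10.28 and 10.42 log2 with 4OHT plus E2, 10.34, 10.56, 10.32 and 10.22 with 4OHT, 9.56, 9.47, 9.56 and 9.38 with E2, and 9.70, 9.60, 9.75 and 9.69 with vehicle. The 0 h arrays, at 10.38, 10.28, 10.32 and 10.46, were as high as the 4OHT arrays. The change was 0.68 ± 0.06 with 4OHT against vehicle (SE, limma adjusted p = 1.73e-07) and 0.84 ± 0.06 with 4OHT plus E2 against E2 (adjusted p = 2.46e-10). With E2 against vehicle the value was -0.19 (adjusted p = 0.152).

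DUSP2, a nuclear phosphatase known first from activated lymphocytes, responded to both E2 and 4OHT in PEO4. The PEO4 arrays read 8.24, 8.28, 8.39 and 8.35 log2 with 4OHT plus E2, 7.69, 7.63, 7.60 and 7.82 with ICI plus E2, and 8.38, 8.05, 8.04 and 8.10 with 4OHT. They read 7.99, 7.55, 7.64 and 7.60 with ICI, 8.24, 8.47, 8.31 and 8.28 with E2, and 7.59, 7.58, 7.62 and 7.64 with vehicle. The E2 arrays and all arrays with 4OHT lay above every vehicle array, and the ICI plus E2 arrays lay below every E2 array. DUSP2 was higher by 0.71 ± 0.08, or 1.64-fold, with E2 than with vehicle (SE, limma adjusted p = 3.62e-06), and by 0.53 ± 0.08 with 4OHT than with vehicle (adjusted p = 2.88e-04). It fell by 0.64 ± 0.08 with ICI plus E2 against E2 (adjusted p = 2.96e-05), whereas 4OHT plus E2 and E2 gave a difference of -0.01 (adjusted p = 0.981).

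In PEO1 the DUSP2 probe set was called with neither E2 nor 4OHT against vehicle. Its values were 7.68, 7.61, 7.47 and 7.57 log2 with E2, against 7.44, 7.54, 7.39 and 7.37 with vehicle, and 7.37, 7.59, 7.32 and 7.33 with 4OHT. The E2 and vehicle arrays overlapped, as did the 4OHT and vehicle arrays. The difference was 0.15 with E2 (adjusted p = 0.404) and -0.03 with 4OHT (adjusted p = 0.847), both against vehicle, while DUSP2 fell by 0.32 ± 0.07 with ICI plus E2 against E2 (SE, limma adjusted p = 0.00501).

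DUSP1, the immediate early phosphatase of p38 and JNK, was raised by 4OHT in PEO1 with and without E2. Probe set 201041_s_at read 9.85, 9.62, 9.74 and 9.92 log2 with 4OHT plus E2, 9.84, 10.10, 9.64 and 9.68 with 4OHT, 9.31, 9.19, 9.23 and 9.37 with ICI, 9.50, 9.54, 9.60 and 9.44 with E2, and 9.40, 9.39, 9.49 and 9.44 with vehicle. Every 4OHT array lay above every vehicle and ICI array. The change was 0.38 ± 0.08 with 4OHT against vehicle (SE, limma adjusted p = 0.0031) and 0.26 ± 0.08 with 4OHT plus E2 against E2 (adjusted p = 0.0262). The other probe set, 201044_x_at, gave -0.16 in the comparison with E2 (adjusted p = 0.0865), so the 2 DUSP1 probe sets differed in sign there, and the call of 201041_s_at with E2 was lost without any 1 of arrays E2 A, B or D and 4OHT with E2 A or D.

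In PEO4, DUSP1 201041_s_at read 11.92, 11.89, 11.91 and 11.76 log2 with 4OHT plus E2, against 11.61, 11.50, 11.60 and 11.58 with E2, groups that did not overlap. The difference was 0.30 ± 0.07 (SE, limma adjusted p = 0.00801). Without E2 it was 0.18 between 4OHT and vehicle (adjusted p = 0.164), where the vehicle arrays reached 11.85 and overlapped the 4OHT arrays at 11.90, 11.83, 11.90 and 11.83.

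DUSP6, the cytoplasmic ERK phosphatase that is a standard readout of ERK activity, was higher with 4OHT in PEO4. Its probe set 208891_at read 11.63, 11.71, 11.72 and 11.70 log2 with 4OHT plus E2, 11.73, 11.54, 11.58 and 11.49 with 4OHT, 11.25, 10.87, 11.09 and 11.16 with ICI, 11.30, 11.16, 11.38 and 11.33 with E2, and 11.28, 11.11, 11.19 and 11.07 with vehicle. All arrays with 4OHT lay above all of the ICI, E2 and vehicle arrays. The 3 DUSP6 probe sets gave 0.42, 0.33 and 0.40 with 4OHT against vehicle and 0.39, 0.34 and 0.43 with 4OHT plus E2 against E2. All 6 of these differences were called, with limma adjusted p between 2.13e-04 and 0.0237. The 208892_s_at calls were the less stable, lost against vehicle without any 1 of arrays vehicle 2 or 4 and 4OHT 1, 2 or 3, and against E2 without E2 2.

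In PEO1, DUSP6 208891_at read 10.37, 10.32, 10.30 and 10.38 log2 with 4OHT, against 10.37, 10.34, 10.51 and 10.34 with vehicle, which overlapped. The difference was -0.05 with a 95% interval of -0.17 to 0.08 (adjusted p = 0.729). Probe set 208893_s_at fell by 0.21 ± 0.04 with 4OHT plus E2 against E2 (SE, limma adjusted p = 8.18e-04), while 208891_at and 208892_s_at gave -0.08 and -0.07 and were not called. Probe sets 208892_s_at and 208893_s_at correlated at 0.72 over the 28 arrays of PEO4 and at 0.17 over the 28 of PEO1, so the DUSP6 probe sets tracked each other in the first line more than in the second.

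DUSP7, a cytoplasmic ERK phosphatase close to DUSP6, rose with both E2 and 4OHT in PEO4 at the brighter of its 2 probe sets. That probe set, 213848_at, read 9.49, 9.30, 9.36 and 9.31 log2 with 4OHT and 9.30, 9.37, 9.29 and 9.30 with E2, against 8.90, 8.97, 9.07 and 9.00 with vehicle. Both treated groups lay wholly above the vehicle arrays. The change was 0.38 ± 0.06 with 4OHT (SE, limma adjusted p = 4.14e-04) and 0.33 ± 0.06 with E2 (adjusted p = 0.00248), and these 2 comparisons share the vehicle arrays. The other probe set, 214793_at, averaged 6.89 with 4OHT and 6.80 with E2, against 6.80 with vehicle, and was not called, at 0.09 (adjusted p = 0.585) and 0.00 (adjusted p = 1). In PEO1 the values were 0.00 with 4OHT, with a 95% interval of -0.10 to 0.11 (adjusted p = 0.976), and 0.19 ± 0.05 with E2 (adjusted p = 0.0504), where the E2 arrays, at 8.68, 8.71, 8.70 and 8.63, all lay above the vehicle arrays, at 8.46, 8.48, 8.57 and 8.45. DUSP9, the third phosphatase of this class and best known from placenta, was called in none of the 28 comparisons, and its group means spanned 0.14 log2 in PEO4 and 0.17 in PEO1.

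Among the phosphatases of JNK and p38, DUSP10 was higher with 4OHT plus E2 than with E2 in PEO4 at the brighter of its 2 probe sets. The other, 215501_s_at, averaged 7.98 log2 with 4OHT plus E2 and 7.78 with E2, overlapped and was not called. Without array 4OHT with E2 4 it was called, at 0.33 (limma adjusted p = 0.00796). The brighter probe set, 221563_at, read 8.79, 8.94, 9.01 and 8.85 log2 with 4OHT plus E2, against 8.71, 8.63, 8.45 and 8.62 with E2, groups that did not overlap. The difference was 0.30 ± 0.07 (SE, limma adjusted p = 0.00667), and that between 4OHT and vehicle was 0.12 (adjusted p = 0.35). In PEO1 the 4OHT arrays, at 7.86, 7.93, 7.60 and 7.70, overlapped the vehicle arrays, at 7.51, 7.55, 7.62 and 7.55, at a difference of 0.22 ± 0.06 (adjusted p = 0.0453) that was lost in 8 of its 15 alternatives, among them the removal of any 1 vehicle array or of 4OHT A or B. DUSP8 was called in none of the 28 comparisons, its group means spanning 0.29 log2 in PEO4, where array ICI 1 read 8.22, and 0.17 in PEO1. Its PEO4 arrays with 4OHT plus E2, at 7.62 to 7.83, lay above those with ICI plus E2, at 7.42 to 7.45. That comparison was called with array weights (0.24, limma adjusted p = 0.0156) and in a fit of the compared groups alone (0.27, adjusted p = 0.0202). It was also called without arrays 0 h 4 and ICI 1 (0.27, adjusted p = 0.00801), and without 4OHT with E2 4 as well (0.23, adjusted p = 0.0419).

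DUSP3 was called with 4OHT in PEO4 at some of its 3 probe sets. Probe set 201537_s_at read 9.22, 9.38, 9.36 and 9.52 log2 with 4OHT plus E2, against 8.94, 9.12, 8.94 and 9.01 with E2, with no overlap. The difference was 0.37 ± 0.06 (SE, limma adjusted p = 2.36e-04), and between 4OHT and vehicle it was 0.27 (adjusted p = 0.0112). Probe set 201536_at gave 0.29 in the second of these comparisons (adjusted p = 0.0261), a call lost without any 1 of arrays vehicle 1 or 2 and 4OHT 1 or 4. With E2 in both groups 201536_at gave 0.08 (adjusted p = 0.699), and 201538_s_at gave 0.18 without E2 (adjusted p = 0.449) and 0.25 with it (adjusted p = 0.306), none of which was called.

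**Figure D3:**
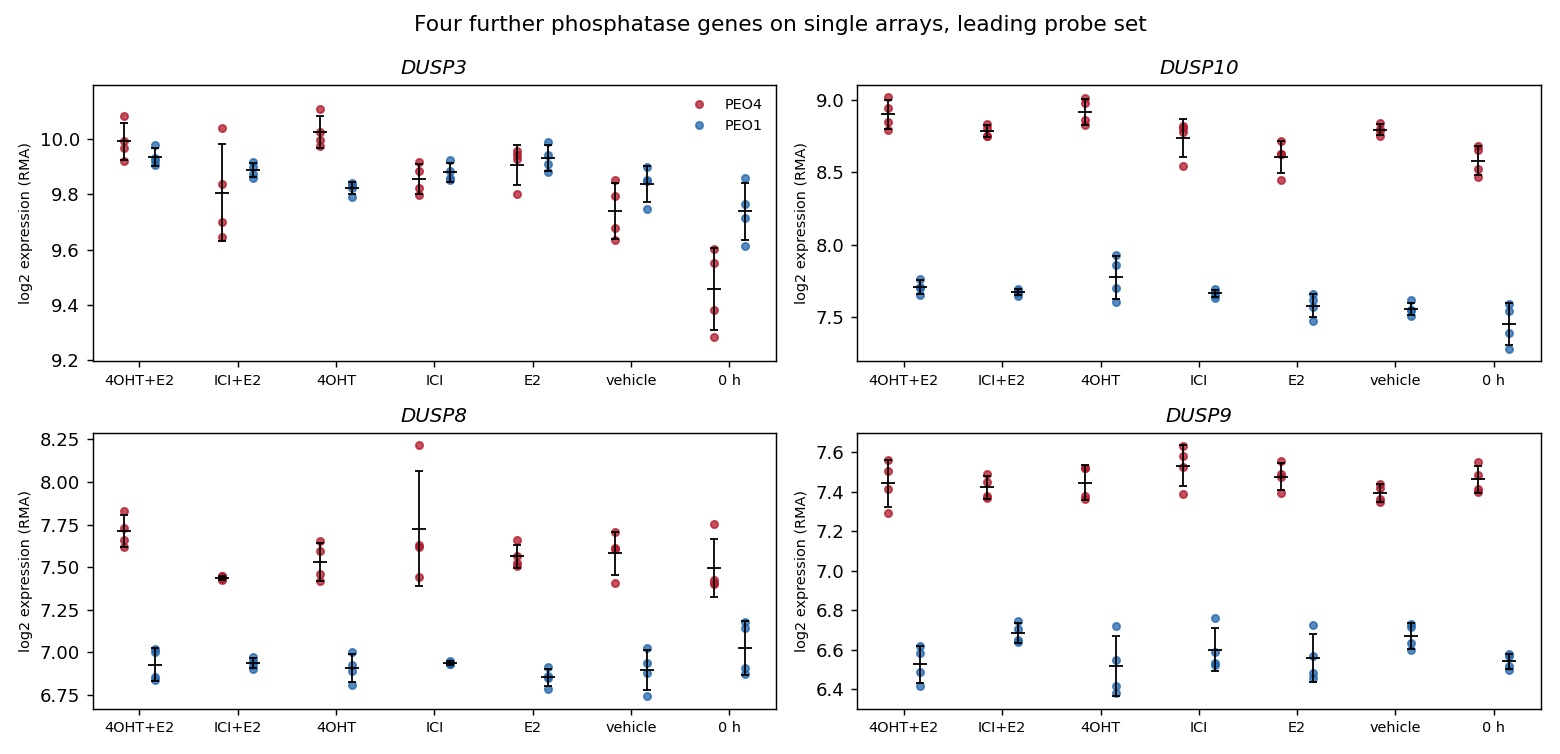
Log2 RMA level of each array (points) with the group mean ± SD (bars) for 1 probe set each of DUSP3, DUSP10, DUSP8 and DUSP9 in the 7 groups, PEO4 in red and PEO1 in blue. The group means of DUSP8 and DUSP9 stay within 0.29 log2 of each other in each line.

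The 2 antiestrogens were compared directly at the same dose of 1 uM and the same time of 3 h, over the 18 probe sets without and with E2 in each line, with p-values adjusted over all 22215 probe sets. They differ in structure, 4OHT being a nonsteroidal triphenylethylene and ICI a steroid with a long side chain. In PEO4, 9 probe sets were higher and 0 lower with 4OHT than with ICI (0.918% of all called higher and 0.644% lower), and 10 were higher and 0 lower with 4OHT plus E2 than with ICI plus E2 (2.16% of all called higher and 1.05% lower). In PEO1 the counts were 6 higher and 0 lower without E2 (1.24% of all called higher and 1.14% lower), and 4 higher and 0 lower with E2 (1.08% of all called higher and 1.63% lower). The comparisons without and with E2 share no arrays. The median difference of the 18 was 0.32 and 0.28 log2 in PEO4, beside -0.02 and 0.01 over all probe sets, and 0.10 and 0.03 in PEO1, beside -0.01 in both.

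DUSP4 204014_at separated the compounds most in PEO4, at 1.36 log2 without E2 (95% interval 1.13 to 1.58, limma adjusted p = 1.29e-08) and 1.68 with E2 (1.45 to 1.90, adjusted p = 1.1e-10). In PEO1 its differences were 0.47 (0.33 to 0.60, adjusted p = 1.41e-04) and 0.57 (0.43 to 0.71, adjusted p = 1.41e-05). For DUSP5 the difference between the compounds in PEO4 was 0.67 both without E2 (0.53 to 0.80) and with it (0.54 to 0.81), and in PEO1 0.63 (0.51 to 0.76) and 0.49 (0.37 to 0.62). All 4 DUSP5 differences were called, with adjusted p between 1.79e-07 and 2.8e-05.

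The other early members differed between the compounds by smaller amounts. DUSP2 was higher with 4OHT than with ICI in PEO4 by 0.45 without E2 (95% interval 0.28 to 0.62) and by 0.63 with it (0.46 to 0.80), both called. In PEO1 its intervals of 0.01 to 0.28 and 0.02 to 0.29 lay near 0, and neither was called (limma adjusted p = 0.243 and 0.189). DUSP1 201041_s_at was higher with 4OHT in PEO1 by 0.54 (0.39 to 0.70, adjusted p = 8.67e-05) without E2 and by 0.38 (0.22 to 0.53, adjusted p = 0.00481) with it. In PEO4 the DUSP1 differences were 0.26 (0.12 to 0.40, adjusted p = 0.047) and 0.29 (0.15 to 0.43, adjusted p = 0.0139), and the first was 0.21 (adjusted p = 0.201) without array ICI 1. That call was lost in 11 of its 17 alternatives, among them the removal of any 1 of the 4OHT arrays or of ICI 2 or 4, and the call with E2 was lost without ICI with E2 2 or 4OHT with E2 3.

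Of the cytoplasmic members, DUSP6 208891_at was higher with 4OHT than with ICI in PEO4 by 0.49 both without and with E2 (95% interval 0.36 to 0.63 in each). Its difference in PEO1 without E2 was 0.09 (-0.03 to 0.22, limma adjusted p = 0.459), although probe set 208893_s_at was called at 0.16 (0.08 to 0.24, adjusted p = 0.0242). DUSP7 213848_at was higher by 0.28 (0.15 to 0.40) in both PEO4 comparisons and was not called in PEO1. Its PEO4 call without E2 was lost without ICI 2 or 4OHT 1, that with E2 without ICI with E2 3, and the PEO1 call of 208893_s_at without any 1 of ICI A, B or D and 4OHT B. Without array ICI 1, whose control probe sets stood apart, the PEO4 differences without E2 were 1.45 for DUSP4, 0.55 for DUSP2 and 0.54 for DUSP6 208891_at, and none of the 3 lost its call.

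**Figure D4:**
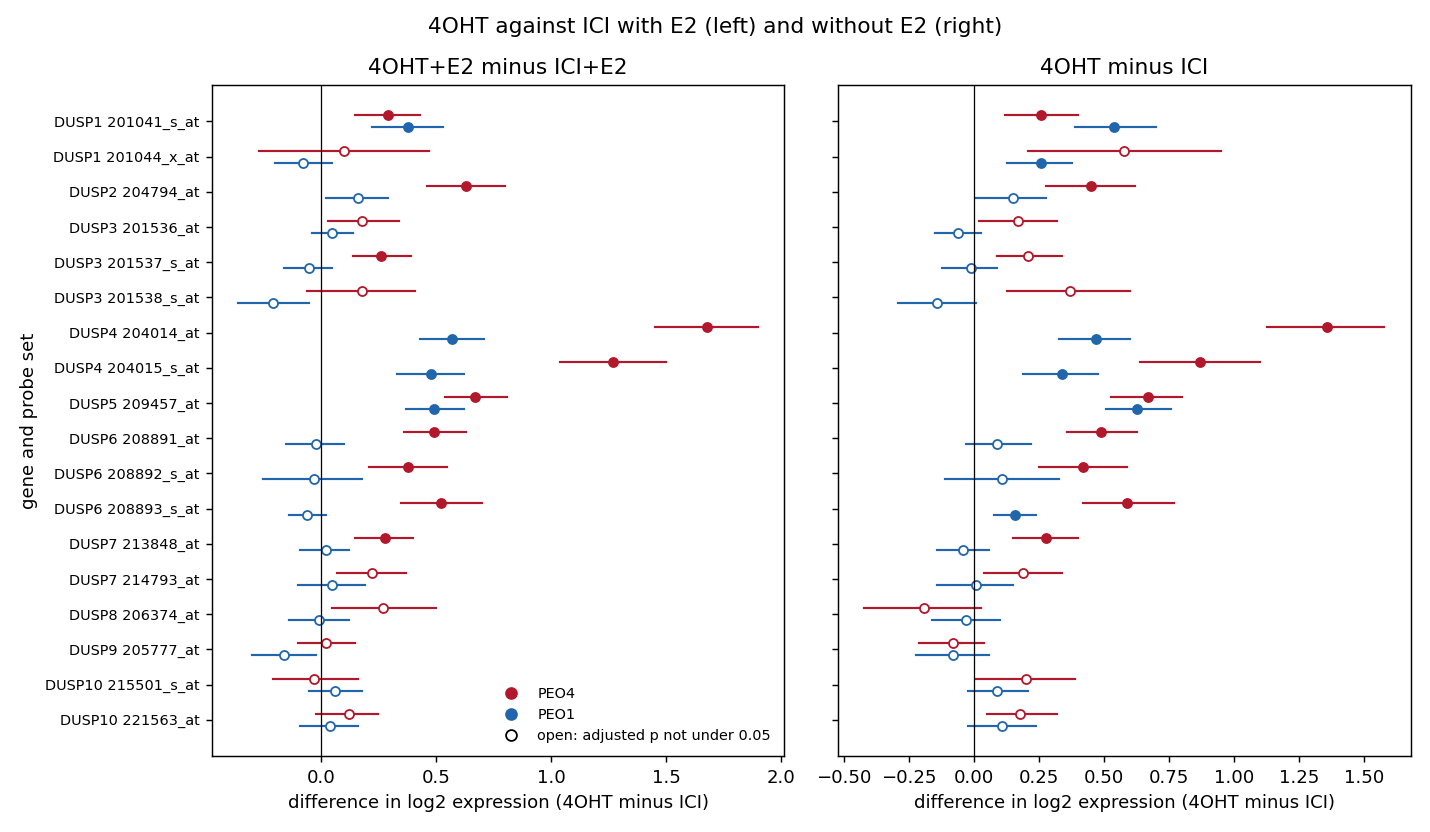
Difference in log2 level between 4OHT and ICI for the 18 member probe sets, with E2 in both groups on the left and without E2 on the right, as points with 95% intervals, PEO4 in red and PEO1 in blue, open where not called. The PEO4 points of DUSP4 lie farthest from 0, at 1.68 and 1.36, and those of DUSP5 lie between 0.49 and 0.67 in both lines.

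E2 alone changed 3 members in PEO4, with 2 higher and 1 lower than with vehicle, where 1.11% of all probe sets were called higher and 0.329% lower. These were DUSP2 and DUSP7 upward and DUSP5 downward, with the values given above. Beside them, DUSP1 201044_x_at read 7.09, 7.07, 6.95 and 7.11 log2 with E2, against 7.56, 7.80, 7.87 and 7.35 with vehicle, groups that did not overlap, at -0.59 ± 0.18 (SE, limma adjusted p = 0.137). It was not called, but was called under 4 alternatives, with adjusted p between 0.00289 and 0.0164, and against vehicle ICI gave -0.65 ± 0.18 at this probe set (adjusted p = 0.0942). Array ICI 1, whose control probe sets stood apart, read 6.357 there, beside 7.281, 7.115 and 7.212 on the other ICI arrays. The brighter DUSP1 probe set, 201041_s_at, averaged 11.57 with E2 and 11.61 with ICI, against 11.69 with vehicle, and was called in neither comparison. In PEO1, 0 of the 18 were called by limma, with 5 at an unadjusted p below 0.05 and 1.14% of all probe sets called higher and 0.36% lower. ICI with E2 against E2 called 1 higher (DUSP4, 0.42 ± 0.11, adjusted p = 0.0486) and 1 lower (DUSP2) in PEO4, where 0.468% of all were called higher and 0.968% lower. In PEO1 it called 2 higher (DUSP4, 0.30, and DUSP5, 0.35 ± 0.06) and 2 lower (DUSP2, and DUSP6 208893_s_at, -0.15) where 0.689% of all were called higher and 1.19% lower. The DUSP4 call in PEO4 was lost in 8 of its 17 alternatives, 7 of them the removal of 1 array (any but E2 3), and the DUSP6 call in PEO1 in 9 of 14, 7 of them the removal of 1 array (any but E2 B). The PEO1 call of DUSP4 was lost without E2 D or ICI with E2 C. DUSP5 and DUSP2 thus moved in opposite directions under ICI with E2 in PEO1, and in PEO4 DUSP5 had a value of 0.26 (adjusted p = 0.0517).

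E2 added to ICI called 0 of the 18 probe sets against ICI alone in either line by limma, with 3 at an unadjusted p below 0.05 in PEO4 and 1 in PEO1, and 0% of all probe sets were called in either direction. E2 added to 4OHT in PEO1 also called 0, with 5 unadjusted and 0% of all called in either direction. Whether an antiestrogen altered the response to E2 was tested as an interaction, the E2 effect in its presence minus the E2 effect in its absence. In PEO4, ICI altered the E2 response of DUSP2 by -0.73 ± 0.12 log2 (SE, limma adjusted p = 0.00125) and of DUSP5 by 0.45 ± 0.09 (adjusted p = 0.017), which were 1 lower and 1 higher where 0.09% of all probe sets were called higher and 0.527% lower. The presence of 4OHT altered it by -0.55 ± 0.12 for DUSP2 (adjusted p = 0.0306), 0.45 ± 0.09 for DUSP5 (adjusted p = 0.0187) and 0.75 ± 0.15 for DUSP4 (adjusted p = 0.0177), which were 2 higher and 1 lower where 0.108% of all were called higher and 0.279% lower. Without array vehicle 3, all 3 calls for 4OHT were lost, and without ICI with E2 3 that of DUSP5 for ICI. For 4OHT, the DUSP2 call was also lost without any 1 of vehicle 1 or 2, E2 2 or 3, 4OHT 1 and 4OHT with E2 1 or 2. The DUSP4 call was also lost without any 1 of E2 1, 4OHT 2 or 3 and 4OHT with E2 3. That of DUSP5 was also lost without any 1 of E2 3, 4OHT 2 or 3 and 4OHT with E2 3. In PEO1 the interaction called 0 members with either antiestrogen by limma, with 3 unadjusted for ICI (0.0225% of all called higher and 0.234% lower) and 4 for 4OHT (0.0855% higher and 0.369% lower).

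Several members already differed between the vehicle group, collected after 3 h, and the 0 h group. In PEO4, 6 probe sets were higher and 1 lower with vehicle than at 0 h (3.01% of all called higher and 1.88% lower), and in PEO1 6 were higher and 2 lower (4.38% of all called higher and 1.28% lower). DUSP4 204014_at went opposite ways, at 0.73 ± 0.11 log2 in PEO4 (SE, limma adjusted p = 7.91e-05) and -0.34 in PEO1 (adjusted p = 0.00262). DUSP5 fell by 0.67 ± 0.06 in PEO1 (adjusted p = 3.63e-07) and had a value of 0.22 in PEO4 (adjusted p = 0.0584). The difference between the lines in this comparison was not tested.

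DUSP3 was called higher with vehicle than at 0 h in both lines at 201537_s_at and 201538_s_at. Probe set 201536_at was called in PEO4 only, and that call was lost in 7 of its 17 alternatives. In PEO1 it averaged 9.84 log2 with vehicle and 9.74 at 0 h, and the groups overlapped. Probe set 201537_s_at read 8.95, 9.05, 9.05 and 8.96 log2 with vehicle in PEO4, against 8.34, 8.26, 8.41 and 8.25 at 0 h, and 9.32, 9.32, 9.34 and 9.28 with vehicle in PEO1, against 9.04, 9.04, 8.89 and 8.99 at 0 h. The groups overlapped in neither line, at 0.69 ± 0.06 in PEO4 (SE, limma adjusted p = 2.15e-08) and 0.33 ± 0.05 in PEO1 (adjusted p = 1.75e-04). DUSP7 213848_at was higher by 0.24 in PEO4 (adjusted p = 0.0243) and 0.20 in PEO1 (adjusted p = 0.0176). DUSP6 208891_at fell by 0.25 in PEO4 (adjusted p = 0.0243), a call that was lost without array 0 h 4, at -0.24 (adjusted p = 0.0595), and without any 1 of 0 h 1 and vehicle 2 or 4. The calls of DUSP7 213848_at were lost without any 1 of 0 h 1, 2 or 3 and vehicle 2, 3 or 4 in PEO4, and without vehicle C or 0 h B in PEO1. In PEO1, DUSP7 214793_at was also called higher, a call lost in 10 of its 14 alternatives. DUSP2 and DUSP1 201044_x_at were called higher there too, calls lost in 6 of 15 and 5 of 14 alternatives.

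The responses of the 2 lines were then compared in one model of all 56 arrays, as the change in PEO4 minus the change in PEO1. For 4OHT against vehicle, 5 probe sets changed more in PEO4 and 0 less, where 0.567% of all changed more and 0.216% less by the same test. These were DUSP4 204014_at (0.82 ± 0.13 log2, SE, limma adjusted p = 2.03e-04), DUSP2 (0.57 ± 0.11, adjusted p = 0.00285), DUSP6 208891_at (0.47 ± 0.09, adjusted p = 0.00281) and 208893_s_at (0.38 ± 0.09, adjusted p = 0.0362), and DUSP7 213848_at (0.38 ± 0.08, adjusted p = 0.00876). The call of 208893_s_at was lost in 9 of its 24 alternatives, 8 of them the removal of 1 array (PEO4 vehicle 3 or 4 or 4OHT 1 or 2, or PEO1 vehicle B or C or 4OHT C or D). For DUSP5 the difference was -0.20, with a 95% interval of -0.38 to -0.02, and was not called (adjusted p = 0.315). For 4OHT plus E2 against E2, 5 changed more in PEO4 and 0 less, where 0.981% of all changed more and 0.414% less, namely DUSP4 204014_at (1.22 ± 0.13) and 204015_s_at (0.91 ± 0.14), DUSP6 208891_at (0.47 ± 0.09) and 208893_s_at (0.64 ± 0.09), and DUSP3 201537_s_at (0.38 ± 0.08). For E2 against vehicle the called member was DUSP2 (0.57 ± 0.11, adjusted p = 0.00271), where 0.153% of all changed more in PEO4 and 0.167% less. For ICI against vehicle 0 were called, with 5 unadjusted, where 0.0585% of all changed more in PEO4 and 0.0045% less.

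The kinases that the family acts on did not pass the test in any comparison. Of 10 listed MAP kinases, 8 were measured by a probe set of a single symbol and 0 were called in all 28 comparisons. Of 16 listed MAP kinase kinases, RAF and RAS genes, 10 were measured, and 0 were called for 4OHT against vehicle in either line. Of 18 related phosphatases outside the family, 9 were measured, and DUSP14, a small atypical enzyme, was higher in PEO4 by 0.24 log2 with 4OHT against vehicle (limma adjusted p = 0.00213) and by 0.45 with 4OHT plus E2 against E2 (adjusted p = 1.36e-07). In PEO1 it was higher by 0.33 with 4OHT plus E2 (adjusted p = 1.22e-05) and by 0.27 with ICI plus E2 (adjusted p = 3.36e-04), both against E2.

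Genes listed as feedback and output genes of the ERK pathway were also called under 4OHT. ERK activity was not measured, and its part in these changes was not tested. Of 18 measured ERK feedback and output genes, 7 were higher and 0 lower with 4OHT than with vehicle in PEO4, at a median of 0.21 log2 beside 0.00 over all probe sets, of which 2.08% were called higher and 1.85% lower. In PEO1, 8 were higher and 1 lower, at 0.16 beside -0.03, where 1.4% of all were called higher and 2.81% lower. In PEO4 they were led by IER3, a survival gene of the early response (1.21 ± 0.11, SE, limma adjusted p = 4.96e-08), and included FOSL1 (1.05), HBEGF (0.71), an EGF receptor ligand, and FOS (0.64). In PEO1, HBEGF (0.71), EGR3 (1.08), IER3 (0.75) and FOSL1 (0.69) were called. With E2 in both groups, 9 were higher and 2 lower in PEO4 (2.72% and 1.53% of all probe sets), and 5 were higher and 1 lower in PEO1 (3.16% and 6.83% of all), the lower one being MYC (-0.39).

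The 13 early genes of the stress MAPK response, all measured, gave 5 higher and 0 lower with 4OHT than with vehicle in PEO4 (median 0.27, 2.08% and 1.85% of all probe sets) and 7 higher and 0 lower in PEO1 (median 0.36, 1.4% and 2.81% of all). With E2 in both groups the counts were 10 higher and 0 lower in PEO4 (2.72% and 1.53% of all), and 7 higher and 0 lower in PEO1 (3.16% and 6.83% of all). FOSB, a component of AP-1, was higher by 1.94 ± 0.14 log2 in PEO4 (SE, limma adjusted p = 1.76e-09) and by 1.62 in PEO1, and the nuclear receptor NR4A3 by 0.97 and 1.17. With E2 against vehicle in PEO4, the ERK list had 2 members higher and 0 lower, MYC (0.96 ± 0.10) and SPRY1 (0.32), where 1.11% of all probe sets were called higher and 0.329% lower. These lists share no gene with DUSP1 to DUSP10.

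Across the 14 group means, each centred within its line, the members resembled each other in pairs, given here as a description over points that share arrays and lines. DUSP3 and DUSP7 correlated at 0.95, DUSP4 and DUSP5 at 0.83, DUSP2 and DUSP7 at 0.82, and the lowest pair, DUSP5 and DUSP9, at -0.50. The genes outside the family most like DUSP4 among 693 candidates were IER3 (0.99), STK17A (0.98), FOSL1 (0.98), CDKN1A (0.96) and GPR183 (0.96). Those most like DUSP5 were KLF6 (0.92), KLF9 (0.91), CITED2 (0.90), KLF2 (0.90) and PPP1R15A (0.88). For DUSP2 they were THBD (0.96), TFAP2C (0.94), MYC (0.92), OTUB2 (0.92) and INHBA (0.91), and the 3 lists of 5 share no gene.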

How the data were processed

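RNA was taken with a spin-column kit, amplified, labelled and hybridised to Affymetrix arrays, per the labels' protocols. The authors deposited 1 table of log2 expression values for 22277 probe sets on 56 arrays, made with RMA (background correction, quantile normalization and probe summary), per the submitters' processing notes, and RMA compresses the changes of dim probe sets. The array medians differed by line, so the lines were taken as normalized apart. Depth does not apply to arrays, and 4 arrays per group limit the precision, with a median SE of 0.075 log2 in PEO4 and 0.069 in PEO1. Of the 22215 probe sets left after 62 control probe sets were removed, 19064 had 1 symbol, 1043 several and 2108 none in the platform annotation.

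Each line was fitted on its 28 arrays with limma 3.58.1 (lmFit, eBayes) in R 4.3.3, and differences between lines in 1 fit of all 56 arrays, giving 28 comparisons in all. P-values were adjusted by Benjamini and Hochberg over 22215 probe sets, with a threshold of 0.05. The scripts were tested on simulated data. All 10 members are named. Figures of levels show the probe set of a gene with the highest mean over the 56 arrays, and the text mostly gives its values first. For DUSP3, 201537_s_at was taken after its values were seen. A dimmer probe set also comes first for DUSP10, and for DUSP1 with E2 against vehicle in PEO4. Genes of other lists were named by smallest adjusted p, up to 4 per list and comparison. The genes most like a member were the 5 with the highest Pearson correlation over 14 group means, among genes whose group means spanned at least 0.5 log2 in a line. The members and lists were chosen with earlier results of these data known. Promoter sequences came from RefSeq (GRCh38.p14), and those of DUSP4 and DUSP5 were not searched and are not shown here. The alternatives were 1 probe set per gene, trended and robust variances, removal of dim probe sets, quantile normalization, a replicate block, array weights, fits of the compared groups alone and leaving out arrays.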

Additional observations from a re-analysis of the deposited data

Results flagged for a closer look

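In 17 of the 252 groups of 4 member values tested, 1 array lay far from the other 3 by Dixon's criterion, where chance gives about 1 in 20. There were 10 such groups in PEO4 and 7 in PEO1. Of the 10 in PEO4, 7 came from the 3 arrays whose ACTB control probe sets stood apart, and the part of RNA length in these values was not tested. On array 4OHT with E2 4, DUSP1 201041_s_at read 11.76 log2 beside 11.89 to 11.92, DUSP7 213848_at 9.49 beside 9.40 to 9.42, and DUSP10 215501_s_at 7.59 beside 8.06 to 8.15. On array 0 h 4, DUSP7 213848_at read 8.94 beside 8.68 to 8.71, DUSP8 7.75 beside 7.40 to 7.42, and DUSP10 215501_s_at 7.57 beside 7.73 to 7.76. On array ICI 1, DUSP10 221563_at read 8.54 beside 8.78 to 8.82. Elsewhere in PEO4, DUSP4 204015_s_at read 9.42 on array 4OHT 1 beside 9.12 to 9.14, DUSP5 read 10.80 on ICI 3 beside 10.65 to 10.68, and DUSP7 213848_at read 9.37 on E2 2 beside 9.29 to 9.30.

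In PEO1, array 4OHT B gave 7.59 log2 for DUSP2 beside 7.32 to 7.37, 9.66 for DUSP6 208892_s_at beside 9.97 to 10.01, and 8.42 for DUSP7 213848_at beside 8.51 to 8.53. Array ICI C gave 6.63 for DUSP1 201044_x_at beside 6.73 to 6.75, and 10.22 for DUSP6 208893_s_at beside 10.20 on the other 3. Array 4OHT with E2 D gave 6.85 for DUSP1 201044_x_at beside 6.68 to 6.69, and vehicle C gave 10.51 for DUSP6 208891_at beside 10.34 to 10.37.

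Responses that differed between the lines, as the change in PEO4 minus that in PEO1 with a limma adjusted p below 0.05, were found for 5 genes. For 4OHT against vehicle the differences were 0.82 log2 for DUSP4 204014_at, 0.57 for DUSP2, 0.47 for DUSP6 208891_at, 0.38 for DUSP6 208893_s_at and 0.38 for DUSP7 213848_at. For 4OHT with E2 against E2 they were 1.22 for DUSP4 204014_at, 0.91 for DUSP4 204015_s_at, 0.47 for DUSP6 208891_at, 0.64 for DUSP6 208893_s_at and 0.38 for DUSP3 201537_s_at, and for E2 against vehicle 0.57 for DUSP2.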

How the results depend on the processing

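Of 100 calls of a member probe set in a comparison, 61 were kept under every alternative run, 39 were lost under at least 1 and 0 changed direction over 1729 alternative values. DUSP4 (both probe sets) and DUSP5 kept their calls for 4OHT against vehicle and for 4OHT plus E2 against E2 in both lines under every alternative. With 1 probe set per gene, the genes called were 1 for E2 against vehicle, 3 for 4OHT plus E2 against E2, 3 for 4OHT against ICI and 4 for vehicle against 0 h in PEO1. In PEO4 they were 6 for 4OHT against vehicle, 5 for 4OHT plus E2 against E2, 1 for 4OHT plus E2 against 4OHT and 6 for 4OHT plus E2 against ICI plus E2, and 2 for the line difference with 4OHT plus E2 against E2, fewer because 10 genes replace 18 probe sets. Trended and robust variances, and likewise the removal of dim probe sets, called 2 in PEO1 for E2 against vehicle (DUSP7 213848_at and DUSP6 208893_s_at) and 1 for the change of the E2 effect by 4OHT. Quantile normalization called 5 in PEO1 for vehicle against 0 h, where 8 were called before it, and moved the median of all probe sets by at most 0.02. Array weights called 2 in PEO1 for E2 against vehicle. In PEO4 the weights called 5 for E2 against vehicle, 3 for ICI against vehicle (DUSP1 201044_x_at, DUSP7 214793_at and DUSP9), 5 for ICI plus E2 against E2, 3 for ICI plus E2 against ICI, 12 for vehicle against 0 h and 6 for the change of the E2 effect by ICI, and 2 for the line difference with E2. Fits of the compared groups alone, which use fewer arrays, called 3 in each of the PEO1 comparisons of 4OHT against vehicle, 4OHT plus E2 against E2 and 4OHT against ICI. In PEO4 such fits called 0 for 4OHT plus E2 against 4OHT and 3 for 4OHT against ICI, where 9 were called with all groups, and 2 for the line difference with E2. Leaving out arrays 0 h 4 and ICI 1 gave 2 for the line difference with E2. Leaving out 4OHT with E2 4 as well, an alternative chosen after the control probe sets were seen, gave 5 for E2 against vehicle, 4 for ICI plus E2 against E2 and 2 for the line difference with E2. The causes of these moves were otherwise not tested.

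With each array left out in turn, the PEO1 counts ranged over 0 to 1 for E2 against vehicle, 4 to 8 for vehicle against 0 h (4 without vehicle C, 5 without vehicle B, 0 h B or 0 h C), 0 to 1 for the change of the E2 effect by 4OHT, and 2 to 4 for ICI plus E2 against E2 (2 without E2 D or ICI plus E2 C). The PEO4 counts ranged over 4 to 7 for vehicle against 0 h (4 without vehicle 4), 0 to 1 for ICI against vehicle (1 without ICI 4), 1 to 2 for the change of the E2 effect by ICI (1 without ICI plus E2 3), 1 to 2 for ICI plus E2 against E2 (1 without E2 1, 2 or 4, or ICI plus E2 1, 3 or 4) and 0 to 2 for 4OHT plus E2 against 4OHT (0 without 4OHT 2, 3 or 4, or 4OHT plus E2 2, 3 or 4). For the change of the E2 effect by 4OHT they ranged over 0 to 3, with 0 without vehicle 3 and 1 without E2 3, 4OHT 2, 4OHT 3 or 4OHT plus E2 3. The PEO4 counts for 4OHT stayed at 8 to 10 against vehicle, and at 8 to 10 with E2 against E2. Arrays of 1 label did not all deviate together, with correlations of -0.57 to 0.53 in PEO4 and -0.38 to 0.32 in PEO1, so the samples were treated as unpaired. The median over same-label pairs was 0.08 in PEO4 and 0.01 in PEO1, beside -0.01 and 0.00 over the others, and 12 and 7 of 28 arrays correlated best with their own label, which leaves some sharing by label possible in PEO4. A fit with the replicate block called 1 in PEO1 for E2 against vehicle and 0 in PEO4 for 4OHT plus E2 against 4OHT, and lost 5 of the 100 calls.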
